A study of Mus musculus with 9 samples.

Results

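Ter119-positive erythroblasts and fresh burst-forming unit-erythroid progenitors (BFU-E), the latest and the earliest cells of the series, were set against each other gene by gene. The comparison took 2 of the 9 libraries, 1 of Ter119+ cells and 1 of fresh BFU-E. A gene was compared where either library held it at 1 or more RPKM, the unit of the files the authors deposited (reads scaled to transcript length and library depth). That kept 10080 of 19840 gene names. Members of interest were the genes silent in one library and expressed in the other, and the genes at one level in both.

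All cells came from the fetal liver of C57BL/6 mouse embryos at embryonic day 13.5 to 14.5, and the series asked how BFU-E renew themselves. Ter119+ erythroblasts were sorted as positive for Ter119, an antigen of the red cell surface, and negative for the receptor Kit. Fresh BFU-E were sorted as Kit-positive cells with the lowest CD71, after cells carrying Ter119, CD34, CD41 or markers of B, T and myeloid cells had been gated away. Fresh CFU-E, the colony-forming progenitors that follow BFU-E, passed the same gates with the highest CD71, and serve here to place a difference along maturation. The other 6 libraries were BFU-E sorted by low CD71, alone or with low CD24a, and cultured with stem cell factor, IGF-1 and erythropoietin. After 4 h in this medium an agent was added for 4 h more. BFU-E sorted by CD71 alone were given the glucocorticoid dexamethasone at 100 nM or water, and those sorted by both antigens were given dexamethasone, DMOG (an inhibitor of prolyl hydroxylases) at 333 µM, both agents or water. Every condition had 1 library, so no difference below has a replicate check, and no test was made.

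BFU-E are the earliest committed red cell progenitors, still proliferating and dependent on Kit and its ligand. Through CFU-E they become erythroblasts, which fill with hemoglobin, build the membrane skeleton of the red cell, shut down much of their other transcription, condense the nucleus and expel it. A well-known step on this path is the exchange of the transcription factor GATA2 for GATA1 at shared sites, and GATA1 and KLF1 then drive the globin, heme and membrane genes.

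Low RPKM values move in steps of 1 read, which gave a depth of 17.4 M (mega) reads in Ter119+ cells and 18.4 M in fresh BFU-E, with 11.9 to 52.7 M in the other libraries. Only 67.0% to 69.9% of low values lay within 0.1 reads of a whole number, against 20% by chance, so read numbers are estimates. With 1 transcript record for each gene, the 10 most abundant genes held 45.6% of the summed RPKM of Ter119+ cells and 6.12% of that of BFU-E. Of the sum over all records, globins held 39.1% in Ter119+ cells and 0.0211% in BFU-E. Levels were therefore divided by 1 factor for each library (0.419 for Ter119+ cells and 1.06 for BFU-E) and are called normalised RPKM. The limit of detection was taken as 3 reads, which for a transcript of 1 kb was 0.411 normalised RPKM in Ter119+ cells and 0.154 in BFU-E. Intervals of ratios are exact (Clopper-Pearson) 95% intervals of counting error only. In bulk samples, fewer cells of a type and less RNA per cell cannot be told apart.

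Ter119+ cells had more genes at very high normalised levels and fewer genes at 1 or more deposited RPKM than BFU-E, 2 unlike units. By a 2-fold difference in normalised RPKM + 1, 2077 genes (20.6%) were higher in Ter119+ cells and 3674 (36.4%) were lower. The remaining 4329 were neither. The median log2 difference of all genes compared was -0.445. Levels of 1000 or more normalised RPKM were reached by 90 genes in Ter119+ cells and by 16 in BFU-E. As deposited, 7316 genes in Ter119+ cells and 9819 in BFU-E were at 1 or more RPKM. Genes above 0, which no scaling moves, numbered 11953 in Ter119+ cells and 13418 in BFU-E. The scaling sets much of this balance. Of genes that differed by 2-fold, 36.1% were the higher ones, against 12.6% with no scaling (904 higher and 6246 lower) and 17.4% after scaling by the summed RPKM without globins (1162 higher and 5511 lower). Without scaling the median of all genes shifted to -1.38. The 904 genes were higher and 3439 lower under each of the 4 scalings run. As shares of all genes compared, 8.968% were higher and 61.964% lower without scaling. Counts of gene lists below are to be read beside these shares, and with scaling beside 20.6% higher and 36.4% lower.

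**Figure D1:**
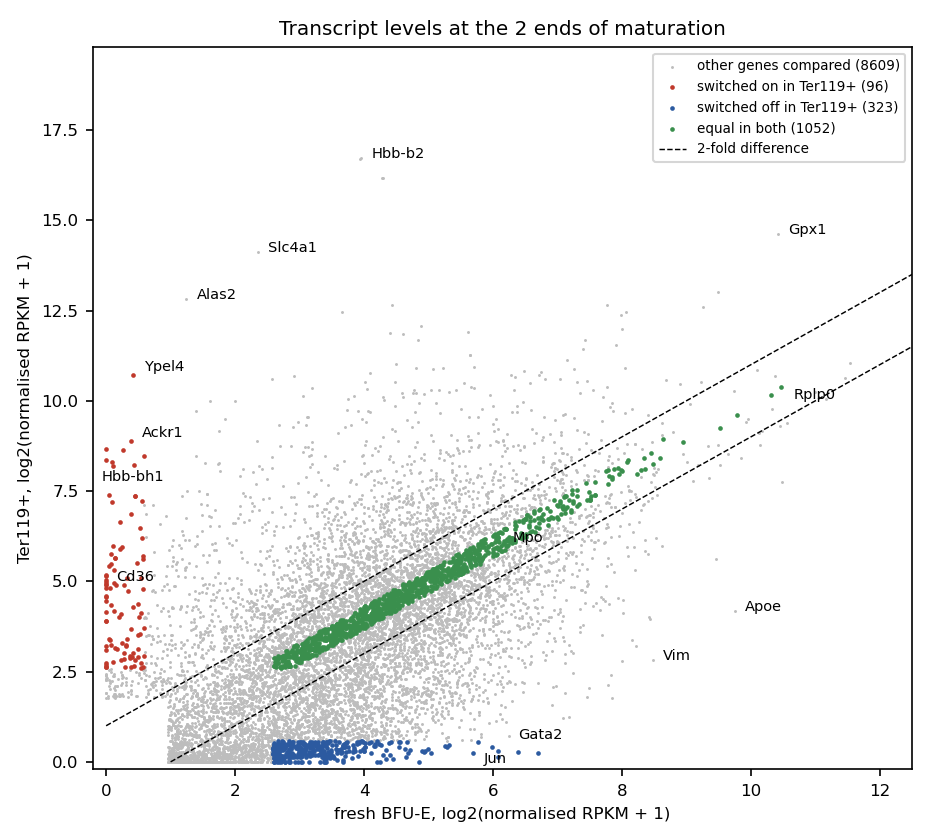
Level of each of the 10080 genes in Ter119+ cells (vertical axis) against fresh BFU-E (horizontal axis), both as log2(normalised RPKM + 1), 1 library each. The 96 genes switched on stand along the vertical axis, the 323 switched off along the horizontal axis, and the 1052 equal genes between the dashed lines of a 2-fold difference.

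With the scaling used here, most of the distance was covered after the CFU-E stage. The factors were 0.419 for Ter119+ cells, 1.09 for CFU-E and 1.06 for BFU-E. The scaling thus raised Ter119+ levels against both progenitors and acted almost wholly on the later step. The steps were not counted under another scaling. Of the 2077 higher genes, 1619 differed by 2-fold between Ter119+ cells and CFU-E alone, 63 between CFU-E and BFU-E alone, 176 in both steps and 219 in neither. Of the 3674 lower genes, 2139 differed in the later step alone, 734 in the earlier step alone, 323 in both and 478 in neither.

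A gene was called switched on where it was under 0.5 normalised RPKM in BFU-E and at 5 or more in Ter119+ cells. This held for 96 genes (0.952% of those compared), among them genes of the cell surface, embryonic globins and granule genes of white cells. Of these, 4 had no symbol in the tables used and are not named. Inside the rule the lowest Ter119+ level was 5.12 and the highest BFU-E level 0.498, and just outside it they were 4.91 and 0.503. In 21 of the 96 genes BFU-E held 0 reads, and in 8 both BFU-E and CFU-E did. The rule did not use CFU-E, where 58 of the genes were also under 0.5, 36 lay between 0.5 and 5, and 2 reached 5 (Plpp1 at 5.69 and Myh7b at 6.43). Nor did it use the cultured BFU-E, where 63 of the 96 were under 0.5 in all 6 libraries. Scoc alone reached 5 in any culture, and it was the only gene not below its Ter119+ level of 5.19 in all 6.

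The highest gene switched on was Ypel4, a member of the yippee-like family, at 1686 in Ter119+ cells, against 0.339 in BFU-E and 1.08 in CFU-E. Its ratio of Ter119+ cells to BFU-E was 4968 (2791 to 10007), and the 6 cultures ran from 0.0596 to 0.219. Fn3k encodes fructosamine-3-kinase, which removes sugars bound to proteins such as hemoglobin. It stood at 406 in Ter119+ cells, with 0 reads in BFU-E and 0.431 in CFU-E, and was at least 2753-fold higher in Ter119+ cells against the limit of 3 reads in BFU-E. Both genes were abundant in Ter119+ cells and at about 1 or less in every other library.

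Several of the leading genes encode proteins of the cell surface or membrane. Ackr1 encodes the Duffy antigen, a chemokine-binding receptor of red cells. It was 475 in Ter119+ cells, against 0.309 in BFU-E and 2.83 in CFU-E. Its ratio to BFU-E was 1541 (738 to 3789), and 19.0% of its sequence also occurred in other transcripts. Slc2a4, the insulin-responsive glucose transporter GLUT4, was 168 in Ter119+ cells and 0.0362 in BFU-E, where it rested on 2 reads, a ratio of 4650 with an interval of 1142 to 34101. The more widely used transporter gene Slc2a1 (GLUT1) was far more abundant, at 4316 in Ter119+ cells and 28.6 in BFU-E. Btnl10, a butyrophilin-like gene, was 357 in Ter119+ cells and 0.497 in BFU-E, with 4.69 in CFU-E. Adra2b, an adrenergic receptor gene, was 146 in Ter119+ cells and 0.0648 in BFU-E. Cd36, a receptor that takes up fatty acids, was 35.2 in Ter119+ cells, had 0 reads in BFU-E and was 0.182 in CFU-E, at least 776-fold higher in Ter119+ cells than in BFU-E.

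The other leaders were of mixed kind. Tinagl1, a secreted matrix protein gene, was 291 in Ter119+ cells and 0.0775 in BFU-E, and the formin-related Fhdc1 was 394 in Ter119+ cells and 0.1996 in BFU-E. Runx1t1, the corepressor gene known as ETO, was 41.8 in Ter119+ cells and 0.0262 in BFU-E, from 2 reads (ratio 1594, interval 372 to 11131). B3gnt3, a glycosyltransferase gene, was 52.6 in Ter119+ cells and 0.0485 in BFU-E. Cadm3, an adhesion gene, was 43.5 in Ter119+ cells and 0.0491 in BFU-E. Socs3, the feedback inhibitor of cytokine receptors that signal through JAK and STAT proteins, was 99.8 in Ter119+ cells, against 0.162 in BFU-E and 0.0766 in CFU-E. Its cultured levels ran from 0.193 to 2.22, also with erythropoietin present. Its relative Cish was 45.0 in Ter119+ cells and 3.57 in BFU-E.

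**Figure D2:**
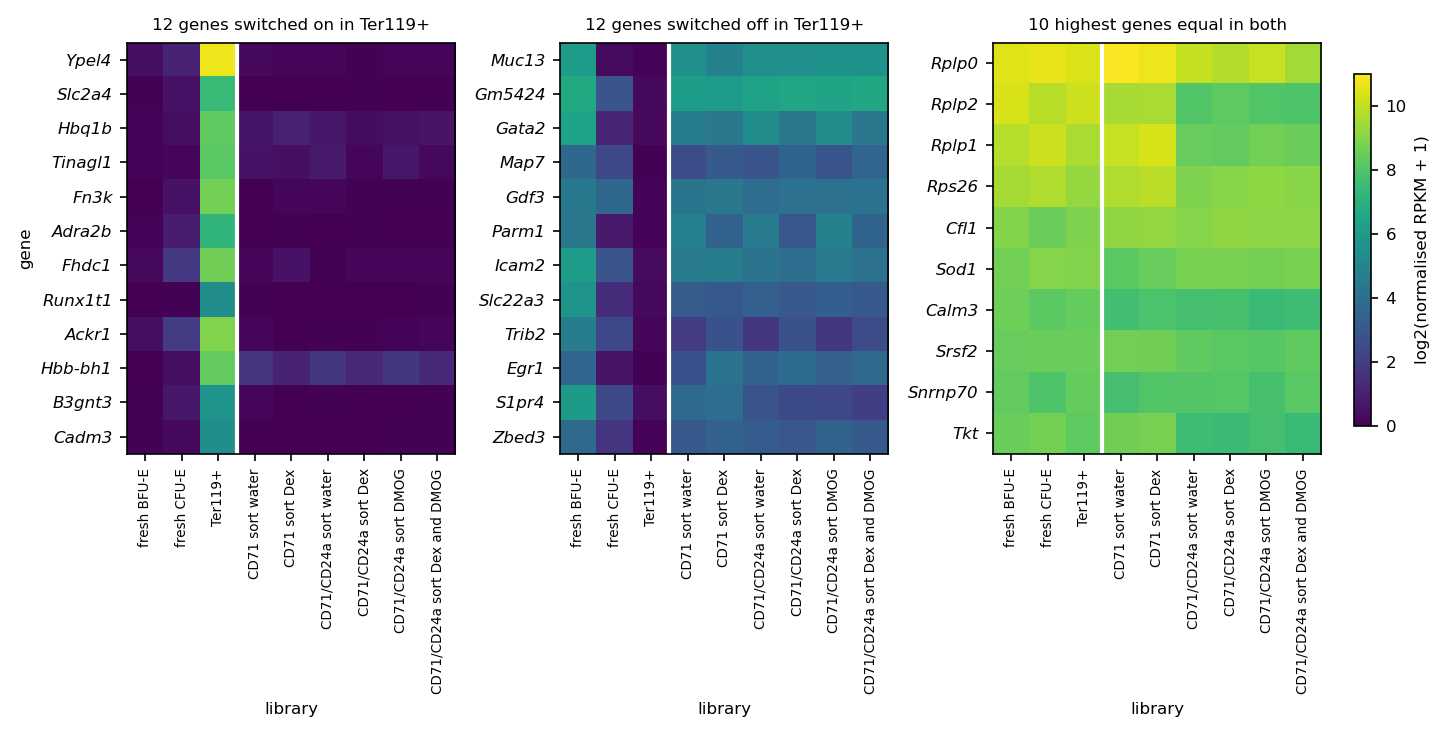
Levels, as log2(normalised RPKM + 1), in all 9 libraries of the 12 genes with the largest ratio among those switched on, the 12 with the largest ratio among those switched off and the 10 most abundant equal genes. The genes switched on are dark in 8 columns and bright in Ter119+ alone, while those switched off stay visible in the 6 cultured BFU-E libraries right of the white line.

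Globins of the embryo were part of the set. Adult alpha- and beta-globin were already present in BFU-E, Hba-a1 at 74090 in Ter119+ cells and 18.6 in BFU-E and Hbb-bt at 106490 in Ter119+ cells and 14.3 in BFU-E, so they did not count as switched on. Each has a near-identical copy (Hba-a2 and Hbb-b2) with nearly the same values, and the share of each copy is uncertain. Hbb-bh1, an embryonic beta-like globin, was 328 in Ter119+ cells with 0 reads in BFU-E, at least 1304-fold higher, and was 0.316 in CFU-E and 1.09 to 2.42 in the cultures. The embryonic Hbb-y was 19.6 in Ter119+ cells and 0.412 in BFU-E, a ratio of 47.5 (19.82 to 151). The embryonic alpha-like Hba-x was 15.2 in Ter119+ cells and 0.427 in BFU-E, a ratio of 35.7 (15.8 to 86.7). They rested on 90 (Hbb-y) and 89 (Hba-x) reads in Ter119+ cells. The theta globin Hbq1b was 315 in Ter119+ cells and 0.0682 in BFU-E, where it rested on 1 read, with 37.9% of its sequence shared. Its neighbour Hbq1a was 34.2 in Ter119+ cells with 0 reads in BFU-E. The order of levels in Ter119+ cells was thus adult beta, adult alpha, Hbb-bh1, Hbq1b, Hbq1a, Hbb-y and Hba-x.

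Promoters of this class were searched for 2 motifs. GATA1 binds a motif whose common form reads AGATAA, and KLF1 binds CACCC boxes, searched here as CCACCC. Both were searched on both strands in RefSeq promoters of the GRCm38.p6 build, 250 bases before to 50 after each gene's start. The 4 promoters below belong to the surface gene Ackr1 (chr1:173333454-173333753, minus strand), to Btnl10 (chr11:58917658-58917957, plus strand) and to the embryonic globins Hba-x (chr11:32276350-32276649, plus strand) and Hbb-y (chr7:103853158-103853457, minus strand). They are shown because both motifs occur among them. Capitals mark either motif on either strand, so that AGATAA read on the other strand appears as TTATCT.
Ackr1: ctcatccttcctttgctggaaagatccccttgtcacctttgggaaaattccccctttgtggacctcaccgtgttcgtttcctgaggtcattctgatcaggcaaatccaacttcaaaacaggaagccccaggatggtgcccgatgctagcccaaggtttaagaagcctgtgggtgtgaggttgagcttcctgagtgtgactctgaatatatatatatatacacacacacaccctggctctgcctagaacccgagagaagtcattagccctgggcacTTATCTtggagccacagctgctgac
Btnl10: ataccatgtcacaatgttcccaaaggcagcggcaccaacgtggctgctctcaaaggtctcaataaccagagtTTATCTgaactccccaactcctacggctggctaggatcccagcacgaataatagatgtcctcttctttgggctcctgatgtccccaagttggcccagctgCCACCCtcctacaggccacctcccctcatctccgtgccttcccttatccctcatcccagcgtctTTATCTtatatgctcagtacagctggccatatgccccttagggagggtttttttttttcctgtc
Hba-x: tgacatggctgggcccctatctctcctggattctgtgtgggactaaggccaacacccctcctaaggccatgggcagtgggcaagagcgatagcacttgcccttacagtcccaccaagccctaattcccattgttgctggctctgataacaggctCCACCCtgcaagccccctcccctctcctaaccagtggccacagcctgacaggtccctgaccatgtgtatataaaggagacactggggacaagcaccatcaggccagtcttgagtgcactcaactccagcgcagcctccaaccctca
Hbb-y: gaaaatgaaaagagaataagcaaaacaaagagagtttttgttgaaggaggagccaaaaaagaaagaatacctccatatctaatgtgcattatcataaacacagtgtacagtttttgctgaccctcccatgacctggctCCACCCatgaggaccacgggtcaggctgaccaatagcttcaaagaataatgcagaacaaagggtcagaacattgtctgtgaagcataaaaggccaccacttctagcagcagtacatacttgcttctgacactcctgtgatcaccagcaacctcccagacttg

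Ackr1 and Btnl10 held AGATAA within this window, Btnl10 at 2 places and with 1 CCACCC. The 2 globin promoters held 1 CCACCC each and no AGATAA. Only this form of the GATA motif was searched. Related forms such as TGATAA, which both globin sequences hold on one strand or the other, were neither counted nor marked. Among the 74 genes switched on that had a promoter in the table, 13 (17.6%) held AGATAA, against 5.24% of 248 genes switched off, 4.52% of 863 equal genes, 6.38% of 8037 genes compared and 11.4% of all 27025 promoters. CCACCC was found in 36.5% of promoters of genes switched on, 43.5% of those switched off and 36.2% of those compared. TATAAA, a form of the TATA box, occurred in 17.6% of promoters of genes switched on, 6.28% of those compared and 14.2% of all promoters. Median GC content was 56.2% in promoters of genes switched on, 61.3% in those of genes compared and 52.7% over all promoters, and its part was not tested. The shares were not tested either, and a match of letters is not a binding site.

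Positions of the genes were also compared with those of the most abundant genes of Ter119+ cells. Of the 92 that could be placed on the genome, 21 (22.8%) had a gene at 500 or more normalised RPKM in Ter119+ cells within 5 protein-coding genes, against 5.43% of genes switched off, 8.50% of equal genes and 9.08% of 9795 genes compared. Part of this is the globin clusters, with Hba-x, Hbq1a and Hbq1b beside alpha-globin and Hbb-bh1 and Hbb-y near beta-globin. Others were Dnajb13 (165 in Ter119+ cells) next to the uncoupling protein gene Ucp2 (1770) and Icam5 (8.26) next to Icam4 (1337). Olfr420, an olfactory receptor gene, was 15.1 in Ter119+ cells and 0.146 in BFU-E. A second olfactory receptor gene, Olfr632, was 14.0 in Ter119+ cells with 0 reads in BFU-E, in CFU-E and in every culture. Whether reads of a neighbouring transcript reach such genes was not tested.

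**Figure D3:**
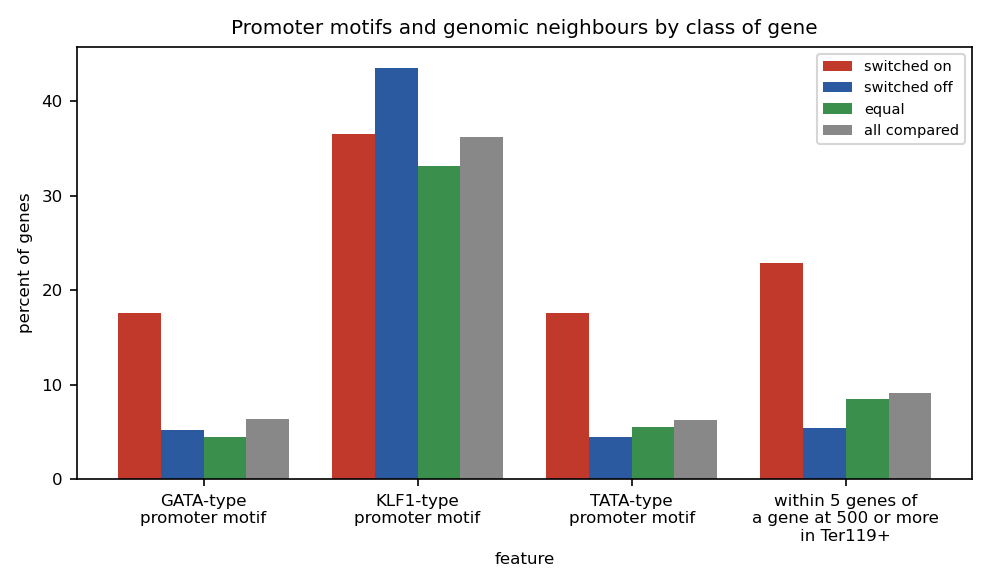
Percent of genes of each class whose promoter holds a GATA-type, KLF1-type or TATA-type motif (bars over genes with a promoter in the table), and percent with a gene at 500 or more normalised RPKM in Ter119+ cells within 5 protein-coding genes. Genes switched on stand at 17.6%, 36.5%, 17.6% and 22.8%, against 6.38%, 36.2%, 6.28% and 9.08% of genes compared.

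Granule genes of white cells were also switched on. S100a9 was 49.1 in Ter119+ cells and 0.105 in BFU-E, from 1 read. S100a8, which encodes its partner, was 20.8 in Ter119+ cells with 0 reads in BFU-E and in CFU-E. Lcn2, Camp and Ngp, further granule genes, were 7.66, 6.13 and 5.39 in Ter119+ cells and 0.120, 0.170 and 0 in BFU-E. Of 16 neutrophil markers, 12 were compared, 9 of them higher and 0 lower in Ter119+ cells, and the summed level of the list was 218 in Ter119+ cells, 102 in BFU-E and 5.09 in CFU-E. Without scaling, 8 were higher and 3 lower, and the order of the sums turned round, with 91.2 deposited RPKM in Ter119+ cells and 107.5 in BFU-E. Of 15 macrophage markers, 7 were compared, 6 of them higher, with C1qc switched on at 6.59 in Ter119+ cells and 0.291 in BFU-E, and sums of 87.0 in Ter119+ cells and 14.4 in BFU-E (36.5 and 15.2 deposited RPKM). Cd163 and Timd4, also markers of macrophages, were at 0 in Ter119+ cells. None of 10 mast cell markers reached 1 RPKM in either library. Per the labels' protocols the Ter119+ gate used Ter119 and Kit alone, while the BFU-E gate removed cells with myeloid markers. The part of other cells in these values was not tested.

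A gene was called switched off where it was under 0.5 in Ter119+ cells and at 5 or more in BFU-E. This held for 323 genes (3.2% of those compared), among them transcription factors, receptors and adhesion molecules of early progenitors. At the edges of the rule, the lowest BFU-E level was 5.02 inside and 4.99 outside, and the highest Ter119+ level 0.499 inside and 0.50037 outside. Ter119+ cells held 0 reads of 22 of the 323. Because the Ter119+ limit of detection for a 1 kb transcript was 0.411, off means at or near that limit. CFU-E, which the rule did not use, held 68 of the genes under 0.5, 187 between 0.5 and 5 and 68 at 5 or more, and 7 stood higher in CFU-E than in BFU-E. In the cultured BFU-E, 107 genes kept 5 or more in all 6 libraries and 321 exceeded their Ter119+ level in all 6. The levels of these genes were modest, with a median of 7.92 in BFU-E, and 28 of the 323 reached 20 there.

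Gata2, which keeps early progenitors undifferentiated, was 0.210 in Ter119+ cells (5 reads), against 82.9 in BFU-E and 1.26 in CFU-E, and was 395-fold lower in Ter119+ cells than in BFU-E (185 to 1330). Its counterpart Gata1 was 557 in Ter119+ cells and 169 in BFU-E. Hhex, a homeobox factor of early blood and liver, was 0.231 in Ter119+ cells and 28.7 in BFU-E. Sox4 was 0.138 in Ter119+ cells and 18.6 in BFU-E, and Meis1, a partner of HOX proteins in stem cells, was 0.0890 in Ter119+ cells and 9.80 in BFU-E. Erg, Mycn and the polycomb gene Bmi1 were 0.307, 0.0524 and 0.341 in Ter119+ cells and 6.82, 5.54 and 5.33 in BFU-E. Hmga2, a chromatin protein of fetal stem cells, was 0.456 in Ter119+ cells and 7.93 in BFU-E. Of the 33 stem and progenitor genes compared, 30 were 2-fold lower, 9 of them switched off, and 2 were higher (Sox6 and Lmo2, which also act in erythroblasts). Their median log2 difference was -2.66, beside -0.445 over all genes compared.

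Of the immediate early genes, which respond within minutes to growth signals, Jun and Egr1 were switched off. Jun was 0.470 in Ter119+ cells, 53.4 in BFU-E and 5.49 in CFU-E. Egr1 was 0.0443 in Ter119+ cells (1 read), 10.9 in BFU-E and 0.478 in CFU-E. The 2 genes parted in culture, where Jun was 0.591 to 2.04 and Egr1 5.83 to 17.3. Fosb and Nr4a1 had 0 reads in Ter119+ cells and were 1.92 and 2.48 in BFU-E. Of the 15 immediate early genes compared, 6 were 2-fold higher in Ter119+ cells, among them the growth inhibitor gene Btg2 (310 in Ter119+ cells and 1.89 in BFU-E) and Ier3 (117 in Ter119+ cells and 6.603 in BFU-E), and 9 were lower. Without scaling, 3 were higher and 9 lower.

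Some receptor and adhesion genes were also switched off. Tgfbr2, the type II receptor of TGF-beta, was 0.240 in Ter119+ cells and 12.6 in BFU-E. Il3ra, of the interleukin 3 receptor, was 0.293 in Ter119+ cells and 9.74 in BFU-E. Acvr1b, an activin receptor gene, was 0.415 in Ter119+ cells and 8.33 in BFU-E. S1pr4, a sphingosine 1-phosphate receptor gene, was 0.328 in Ter119+ cells and 62.3 in BFU-E. The adhesion gene Icam2 was 0.238 in Ter119+ cells (2 reads), 66.8 in BFU-E and 6.46 in CFU-E. Muc13, a membrane mucin gene, had the largest ratio of the class where genes at 0 were counted at 3 reads. It was 0.0917 in Ter119+ cells (2 reads), 66.4 in BFU-E and 0.234 in CFU-E. This was 724-fold lower in Ter119+ cells than in BFU-E (interval 199 to 5940). The ranking favours genes with reads below that limit over genes at 0, such as Ppic (27.9 in BFU-E), ranked at 95.3. Muc13 was retained at 27.5 to 49.5 in the cultured BFU-E. Itga5, the alpha chain of the fibronectin receptor, behaved otherwise in time, with 0.249 in Ter119+ cells, 10.4 in CFU-E and 11.02 in BFU-E. Slamf1, a stem cell surface gene, and Pecam1, shared with endothelium, were 0.253 and 0.168 in Ter119+ cells and 6.93 and 6.88 in BFU-E.

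Among metabolic and other leaders, the cation transporter gene Slc22a3 was 0.194 in Ter119+ cells and 50.8 in BFU-E. The urea cycle gene Ass1 was 0.334 in Ter119+ cells and 38.1 in BFU-E, and the predicted gene Gm5424 was 0.176 in Ter119+ cells and 103 in BFU-E. Of Gm5424 85.5% and of Ass1 40.6% of the sequence occurred elsewhere, so their levels are uncertain. Gdf3, a ligand of the TGF-beta family, was 0.0645 in Ter119+ cells (1 read), 11.8 in CFU-E and 21.0 in BFU-E. Trib2, a pseudokinase gene, was 0.0973 in Ter119+ cells, 4.22 in CFU-E and 24.2 in BFU-E. Map7, a microtubule-associated protein gene, was 0.0352 in Ter119+ cells, 4.17 in CFU-E and 11.8 in BFU-E. Parm1 and Zbed3 were 0.0653 and 0.0719 in Ter119+ cells and 19.3 and 13.1 in BFU-E.

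A gene was called equal where both libraries held 5 or more normalised RPKM and the lower level was at least 0.8 of the higher. Of 5390 genes at 5 or more in both, 1052 qualified (10.4% of all genes compared), with ratios just outside of 0.79994 and 1.2502. Equality here is relative to the scaling. As deposited, the RPKM of these genes in Ter119+ cells was 0.318 to 0.496 of that in BFU-E, none of the 1052 was equal without scaling or under the globin-free scaling, and 828 were under scaling by the 2 libraries alone.

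The most abundant equal genes were Rplp0, Rplp1 and Rplp2, of the ribosomal stalk. Rplp0 was 1337 in Ter119+ cells and 1419 in BFU-E, a ratio of 0.943 (0.924 to 0.962), Rplp1 was 772 in Ter119+ cells and 885 in BFU-E, and Rplp2 was 1146 in Ter119+ cells and 1277 in BFU-E. Rps26 was 604 in Ter119+ cells and 735 in BFU-E. From 20.3% to 74.6% of the sequence of these 4 was shared with other copies. Sod1, the cytosolic superoxide dismutase gene, was 489 in Ter119+ cells, 518 in CFU-E and 399 in BFU-E. The actin-severing gene Cfl1 was 465 in Ter119+ cells and 490 in BFU-E, and the calmodulin gene Calm3 340 in Ter119+ cells and 383 in BFU-E. The splicing genes Srsf2 and Snrnp70 were 372 and 339 in Ter119+ cells and 349 and 323 in BFU-E. The pentose phosphate gene Tkt was 304 in Ter119+ cells and 357 in BFU-E. The spread of Rplp0 over the cultures, 714 to 1937, was wider than its distance between the fresh libraries.

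With scaling, some regulators were equal while their partners were not. The E protein gene Tcf3 was 210 in Ter119+ cells and 173 in BFU-E, while its partner Tal1 was 601 in Ter119+ cells and 66.8 in BFU-E. Ikzf1 was 73.9 in Ter119+ cells, 112 in CFU-E and 87.3 in BFU-E. Kdm1a, the histone demethylase LSD1, was 28.3 in Ter119+ cells and 33.9 in BFU-E, while Gfi1b, which recruits it, was 309 in Ter119+ cells and 123 in BFU-E. This contrast depends on the scaling. As deposited, Gfi1b was nearly level between the libraries, and Kdm1a, like every gene called equal here, was not equal. Nfe2l2, the factor NRF2, was 42.8 in Ter119+ cells and 36.2 in BFU-E. Of the pro-death genes, Bax was 64.5 in Ter119+ cells and 70.4 in BFU-E, and Bak1 8.91 in Ter119+ cells and 43.3 in BFU-E. Among transcripts often taken as references, Tbp was 13.4 in Ter119+ cells and 14.7 in BFU-E and Vcp 33.1 in Ter119+ cells and 33.0 in BFU-E, but 5 of 27 such transcripts were 2-fold higher in Ter119+ cells, among them Tfrc, and 9 were 2-fold lower (3 higher and 19 lower without scaling).

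Being equal at both ends did not always mean a level course. CFU-E, which the rule did not use, stood 2-fold above both ends for 7 of the 1052 genes and 2-fold below both for 17. Mpo, a granule enzyme gene of neutrophil precursors, was 57.3 in Ter119+ cells, 71.5 in BFU-E and 2.09 in CFU-E, and 3.60 to 13.4 in the cultures. Prtn3, of the same granules, was 29.2 in Ter119+ cells, 24.6 in BFU-E and 1.23 in CFU-E. The hepatocyte gene Alb was 10.3 in Ter119+ cells, 10.0 in BFU-E and 3.74 in CFU-E. These 3 are markers of other cells, whose part was not tested. Other genes that dipped included Txnip, a regulator of glucose uptake (49.3 in Ter119+ cells, 53.8 in BFU-E and 21.0 in CFU-E) and the autophagy receptor gene Optn (51.9 in Ter119+ cells, 42.2 in BFU-E and 13.9 in CFU-E). Of those that peaked, C1qtnf12 was 35.7 in Ter119+ cells, 41.3 in BFU-E and 165 in CFU-E. The inositol phosphate phosphatase gene Minpp1 was 39.8 in Ter119+ cells, 46.2 in BFU-E and 107 in CFU-E. The copper transporter gene Slc31a1 was 8.07 in Ter119+ cells, 8.55 in BFU-E and 20.3 in CFU-E.

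**Figure D4:**
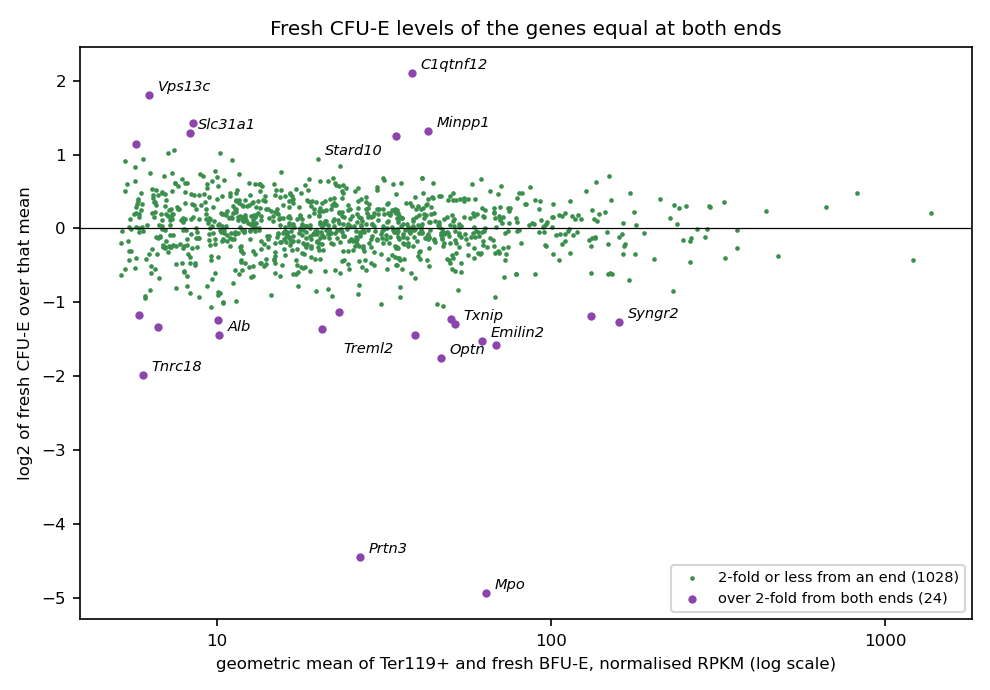
Fresh CFU-E level of each of the 1052 genes equal at both ends, as log2 of the ratio to the geometric mean of Ter119+ cells and fresh BFU-E, against that mean in normalised RPKM on a log scale. Of 24 genes over 2-fold from both ends, 7 lie above and 17 below, with Mpo and Prtn3 the lowest.

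The gene lists of red cell function were higher in Ter119+ cells nearly throughout, against 20.6% of all genes compared. All 14 heme synthesis genes were 2-fold higher, with a median log2 difference of 4.96. Alas2, the erythroid enzyme that starts heme synthesis, was 7242 in Ter119+ cells, 6.33 in CFU-E and 1.37 in BFU-E. Fech, which inserts the iron, was 2488 in Ter119+ cells and 49.3 in BFU-E. All 13 membrane skeleton genes were higher (median 5.87), led by the anion exchanger gene Slc4a1 at 17890 in Ter119+ cells and 4.12 in BFU-E and the protein 4.2 gene Epb42 at 839 in Ter119+ cells and 1.63 in BFU-E. Of 21 surface proteins and channels, 19 were higher and 1 (Car1) lower. Of 18 iron genes, 11 were higher and 1 lower (9 and 5 without scaling). The lower one was Aco1, the iron-regulatory enzyme, at 2.17 in Ter119+ cells and 29.5 in BFU-E. The mitochondrial iron importer gene Slc25a37 was 6417 in Ter119+ cells and 20.6 in BFU-E. Tfrc (CD71) and Kit, 1040 and 2.45 in Ter119+ cells and 18.9 and 175 in BFU-E, encode antigens of the gates. BFU-E were gated on both, and Ter119+ cells on Kit but not on CD71. The part of the sort in these differences was not tested.

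**Figure D5:**
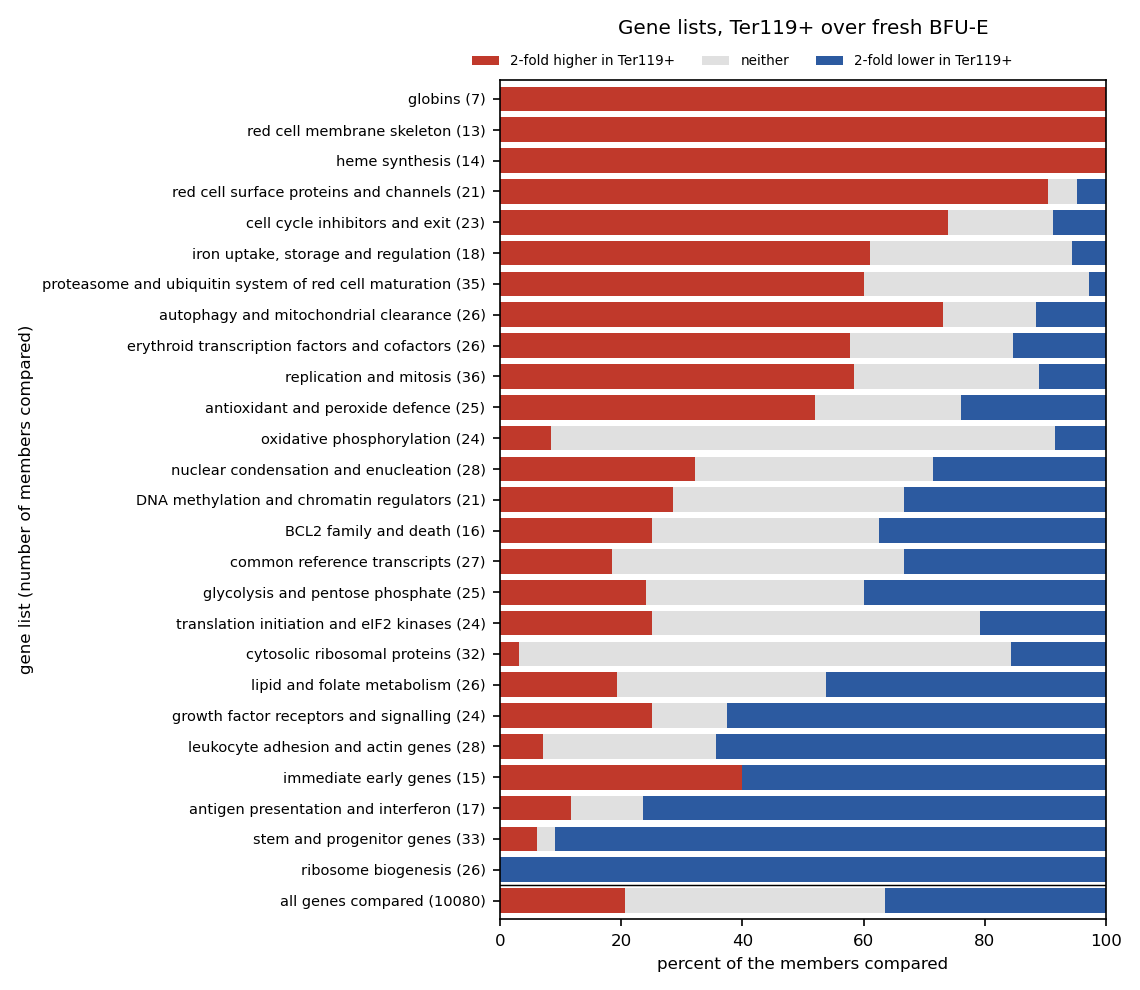
Percent of the members compared of each gene list that were 2-fold higher, neither, or 2-fold lower in Ter119+ cells than in fresh BFU-E, ordered by median difference, with all 10080 genes compared at the bottom. Globins, membrane skeleton and heme genes are wholly on the higher side and ribosome biogenesis wholly on the lower side.

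Of 35 proteasome and ubiquitin genes, 21 were 2-fold higher and 1 lower (15 and 8 without scaling), led by the ubiquitin ligase gene Trim10 (1914 in Ter119+ cells and 1.13 in BFU-E) and the conjugating enzyme gene Ube2l6 (1660 in Ter119+ cells and 6.56 in BFU-E). The 5 equal members of this list (Psmb1, Psmb5, Psmb6, Psmc4 and Psmd11) are all subunits of the proteasome itself. Of 26 autophagy genes, 19 were higher and 3 lower (8 and 5 without scaling), with the kinase gene Ulk1 at 221 in Ter119+ cells and 12.9 in BFU-E, but Ulk2 at 0.671 in Ter119+ cells and 4.88 in BFU-E. Of 25 antioxidant genes, 13 were higher and 6 lower, or 10 and 10 without scaling. Gpx1, a glutathione peroxidase gene, was 25190 in Ter119+ cells and 1363 in BFU-E, while the peroxiredoxin gene Prdx6 was 41.8 in Ter119+ cells and 218 in BFU-E. Of 28 genes of nuclear condensation and enucleation, 9 were higher and 8 lower (6 and 15 without scaling), with Xpo7, an exportin gene, at 426 in Ter119+ cells and 5.52 in BFU-E and the deacetylase gene Hdac7 at 1.32 in Ter119+ cells and 135 in BFU-E.

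Ribosome biogenesis was lower as a whole list, in 26 of 26 genes against 36.4% of all genes compared, with a median log2 difference of -2.88. Polr1b, of RNA polymerase I, was 3.23 in Ter119+ cells and 70.6 in BFU-E, and nucleolin (Ncl) 34.1 in Ter119+ cells and 157 in BFU-E. Ribosomal proteins differed less, with 1 of 32 higher, 5 lower and 7 equal (median -0.53), although without scaling 28 were lower and 26 of the 32 share sequence with other copies. Of 24 oxidative phosphorylation genes, 2 were higher, 2 lower and 20 neither, with a median of 0.32 that turned to -0.98 without scaling. Of 25 glycolysis genes, 6 were higher and 10 lower (4 and 17 without scaling). With scaling, this split was close to that of all genes compared, 20.6% higher and 36.4% lower. Without scaling, 8.968% of all genes compared were higher and 61.964% lower. Bpgm, which makes the phosphoglycerate that tunes oxygen release, was 553 in Ter119+ cells and 11.1 in BFU-E, Pklr, the red cell pyruvate kinase, 507 in Ter119+ cells and 108 in BFU-E, and the other pyruvate kinase gene Pkm 11.1 in Ter119+ cells and 162 in BFU-E.

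Cell cycle lists held members of both directions. Of 23 inhibitors and exit genes, 17 were 2-fold higher and 2 lower (median 2.90), or 13 and 5 without scaling, with Cdkn2c at 94.4 in Ter119+ cells and 0.785 in BFU-E and the MYC antagonist gene Mxd1 at 291 in Ter119+ cells and 4.19 in BFU-E. Myc was 9.30 in Ter119+ cells and 284 in BFU-E. Of 36 replication and mitosis genes, 21 were higher and 4 lower (9 and 6 without scaling), with the proliferation marker gene Mki67 at 1803 in Ter119+ cells and 88.8 in BFU-E. The 4 lower ones were Cdk4, Cdk6, Ccnd1 and Ccnd2, all of the cyclin D step, where Cdk6 was 1.27 in Ter119+ cells and 69.9 in BFU-E. The remaining D cyclin gene, Ccnd3, was 827 in Ter119+ cells and 81.8 in BFU-E.

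Of 26 erythroid transcription factors and cofactors, 15 were higher, 4 lower and 4 equal, or 9 higher and 11 lower without scaling. Sox6, a repressor of embryonic globin, was 115 in Ter119+ cells, 2.95 in CFU-E and 0.543 in BFU-E. Klf1 was 1247 in Ter119+ cells and 187 in BFU-E, Nfe2 1477 in Ter119+ cells and 158 in BFU-E, and Foxo3 424 in Ter119+ cells and 49.7 in BFU-E. The 4 lower were Myb (3.34 in Ter119+ cells and 220 in BFU-E), Bcl11a, Spi1 and Cbfa2t3. Of 24 receptor and signalling genes, 6 were higher and 15 lower (4 and 16 without scaling). The erythropoietin receptor gene Epor was 993 in Ter119+ cells and 87.0 in BFU-E, while Stat5a, which acts downstream of it, was 1.0999 in Ter119+ cells and 60.6 in BFU-E, with part of its sequence shared with Stat5b.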

How the data were processed

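RNA was measured by paired-end mRNA sequencing in 9 libraries, per the labels' protocols. The authors deposited RPKM for 23041 RefSeq transcript records in each, on the mm9 build per the submitters' processing notes. How reads were aligned and counted, whether by strand, and how multiply matching reads were handled are not given in the sources used here. In 4 of the files values of exactly 1 stand where 0 would, and they were read as 0.

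Symbols came from a RefSeq table of GRCm38.p6 for 22393 records and from GENCODE M21 for 118, and 530 had none. Where a name had several records (2158 of 19840), the one with the highest mean was used. Transcript lengths from GENCODE, also of another build than the files, turned RPKM into reads. Each library was divided by the median ratio to the geometric mean over the 6888 genes that every library held at 1 RPKM or above. Differences are log2(normalised RPKM + 1), with a pseudocount of 1, which understates low genes. A gene shared sequence where 10% or more of its 32-base words, sampled 1 in 4, occurred in other transcripts.

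The members, the 34 lists and the rules were chosen with earlier results of these data known. Named genes were the 12 largest ratios among genes switched on and off (a library at 0 counted at 3 reads), the 10 most abundant equal genes, list members in a class and up to 4 others a list with the largest difference. Other genes set beside these, the TATA motif and the neighbour count were chosen after their values were seen. The alternatives were other scalings, filters, pseudocounts and thresholds. The steps were tested on simulated libraries of 13063 genes, where 50 of 50 genes raised 4-fold and 50 of 50 lowered 4-fold were called. The changed genes were few and all abundant, and Ter119+ cells were otherwise scaled by 1 common factor. The run therefore cannot show how the rules act near their thresholds, or how the scaling acts where a large share of genes differ. Python 3.11.15, pandas 2.3.3, NumPy 2.4.6, SciPy 1.17.1 and matplotlib 3.10.9 were used. Some results are not reported here.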

Additional observations from a re-analysis of the deposited data

How the results depend on the processing

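No paired analysis was possible because each condition had 1 library, and for the same reason no replicate could be left out in turn. Both scaling and thresholds moved the counts. Without scaling, 904 genes were higher, 6246 lower, 55 switched on, 779 switched off and 526 equal. With the globin-free sums, 1162 were higher, 61 switched on and 632 switched off. Scaling by the 2 libraries alone left each count within 1.5 times, although 72 of the 96 genes switched on and 181 of the 323 switched off were shared. Thresholds moved the classes by construction. At under 0.1 and 10 or more, 28 genes were switched on and 14 off, and at under 1 and 5 or more 154 and 645. Equality within 1.1-fold gave 432 genes, within 1.5-fold 1852, and with 20 or more in both 543. Summing records and leaving out genes of shared sequence left each count within 1.5 times. A pseudocount of 0.1 and other filters did so for the counts of higher and lower genes, the only counts run on them. Keeping exact 1 when scaling (chosen after seeing the data) left the factors of both libraries and all counts the same, so it was no check of them. All 24 genes named for their ratio kept their direction and a 2-fold difference in the 7 alternatives run on them. They were picked as the largest ratios of these same libraries, and other filters do not touch a gene's level. Their choice thus set this outcome, and it is no check of them. No list median of at least 1 in size changed sign, but some shrank. Over all alternatives run on list medians, 84 values were labelled moved and 147 the same. Dropping the scaling took the median of erythroid factors from 1.6625 to 0.3321. It took replication and mitosis from 1.4225 to 0.1169 and antioxidant genes from 1.3953 to 0.0795. Dropping the filter took immediate early genes from -1.6607 to -0.2592 and endothelial markers from -2.5311 to -0.2166. Setting members at 0 at their limit of 3 reads moved list medians by at most 0.643. Genes under about 0.4 in Ter119+ cells are at the limit of detection.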

Other observations

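Of 17 antigen presentation and interferon genes, 13 were 2-fold lower and 2 higher, against 36.4% lower and 20.6% higher of all genes compared, with a median log2 difference of -2.28. The immunoproteasome gene Psmb8 was 1.89 in Ter119+ cells, 0.442 in CFU-E and 45.6 in BFU-E, and the peptide transporter gene Tap1 0.680 in Ter119+ cells and 24.2 in BFU-E, while Tapbp was 106 in Ter119+ cells and 31.0 in BFU-E. Of 28 leukocyte adhesion and actin genes, 18 were lower and 2 higher. Vim, the intermediate filament vimentin, was 6.09 in Ter119+ cells, 1.47 in CFU-E and 355 in BFU-E. Of 26 lipid and folate genes, 12 were lower and 5 higher, with Apoe at 17.2 in Ter119+ cells and 862 in BFU-E, and Slc19a1, the folate carrier gene, at 1.96 in Ter119+ cells and 69.1 in BFU-E.

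Of 24 translation genes, 6 were higher and 5 lower, or 5 and 15 without scaling. Over all genes compared, 20.6% were higher and 36.4% lower, or 8.968% and 61.964% without scaling. The heme-regulated kinase gene Eif2ak1 was 809 in Ter119+ cells and 35.3 in BFU-E, and Ppp1r15a, which reverses its action, 1192 in Ter119+ cells and 26.1 in BFU-E, while the amino acid sensor gene Eif2ak4 was 1.75 in Ter119+ cells and 12.8 in BFU-E. Of 16 BCL2 family and death genes, 4 were higher and 6 lower, or 1 and 9 without scaling. The survival gene Bcl2l1 was 1052 in Ter119+ cells and 12.49 in BFU-E, and Bcl2 had 0 reads in Ter119+ cells and was 3.34 in BFU-E. Of 21 chromatin genes, 6 were higher and 7 lower (2 and 12 without scaling), with Dnmt3a at 0.677 in Ter119+ cells and 14.6 in BFU-E and Dnmt1, which copies methylation at replication, at 223 in Ter119+ cells and 176 in BFU-E. Among markers of other cells that were compared, 3 of 11 megakaryocyte genes were higher and 5 lower, and 1 of 4 lymphoid genes was higher and 3 lower. Of 8 hepatocyte genes 0 were higher and 2 lower, and 4 of 4 endothelial genes were lower. These counts stand beside 20.6% higher and 36.4% lower of all genes compared. The filter left only 4 of 13 lymphoid and 4 of 10 endothelial markers. Their median log2 differences were -2.01 and -2.53, but -0.111 and -0.217 with no filter. The part of other cells was not tested.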
